A study of Nothobranchius furzeri and Iconisemion striatum and Callopanchax occidentalis with 18 samples.

Results

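Of the 18 small RNA libraries of killifish embryos in the series, 5 came from Nothobranchius furzeri embryos labelled as in diapause, and these differed among themselves in strain and in how long diapause had lasted. They were chosen by those labels alone. A pair of libraries came from embryos of the strain labelled GRZ x MZZW, 1 after 1 month and 1 after 2 months of diapause. The other 3 came from MZM strains: 1 of MZM0410 after 2 weeks, 1 of MZM0410 with no stated length and 1 of MZM0403 with no stated length. The 3 N. furzeri libraries of embryos not in diapause, all of MZM0410, served as a reference for levels. All were made from total RNA of whole embryos at the somite stage, and how many embryos went into a library is not given in the sources used here. Strain and length were confounded, since every library with a stated length of 1 month or more was GRZ x MZZW and the 2-week library was not. The pool and lane labels in the column names differed as well, and they do not say which libraries shared a sequencing run. The MZM0403 library and the MZM0410 library of no stated length carried the label of lane 1, the 2-week and the 1-month libraries that of pool 3 with the 3 libraries not in diapause, and the 2-month library that of pool 2. Strain, length and whatever these labels stand for therefore cannot be told apart in most of what follows.

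N. furzeri is an annual killifish of seasonal African pools, whose embryos outlast the dry season in the mud by entering diapause, an arrest in which growth and metabolism are lowered. Mature miRNAs are short RNAs that guide the repression of messenger RNAs through a seed near their 5′ end, and many are markers of a tissue or of a step of development. The miR-10 family is encoded in the Hox clusters, whose genes set position along the body, miR-430 clears maternal messenger RNAs in early zebrafish embryos, the miR-17-92 clusters drive proliferation in mammals, and let-7 accumulates as cells differentiate.

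The count table listed 291 mature miRNAs. The 5 diapause libraries held between 579183 and 4103430 counts and detected between 206 and 240 miRNAs. Of the reads of 18 to 33 nt, the share counted on miRNAs was 51.2% in the MZM0403 library, 3.02% in the MZM0410 library of no stated length, 11.7% in the 2-week library, 77.3% in the 1-month library and 13.1% in the 2-month library. Counts are given below as RPM (counts scaled by the miRNA total of the library to a common total of 1e6) or as TMM-scaled CPM, in which each library is also scaled so that most miRNAs level out. A count of 0 allows up to 3 counts, which corresponds to 0.731 RPM in the 1-month library and to 5.18 RPM in the MZM0410 library of no stated length. Such floors and the intervals below cover counting error only. Lists known from differentiated tissue took unequal shares of the diapause libraries: blood miRNAs between 0.000829% and 0.0109% of counts, muscle miRNAs between 0.00848% and 0.0358%, lens and pigment epithelium between 0.154% and 0.545%, and skin between 0.418% and 1.90%. In whole embryos, fewer cells of a type and less of a miRNA per cell cannot be told apart.

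The miR-10 family made up most of every library, and more so in GRZ x MZZW than in MZM. Its 8 listed members took 92.6% of the counts after 1 month and 87.5% after 2 months in GRZ x MZZW. They took 82.8% in MZM0410 after 2 weeks, 70.3% in MZM0410 of no stated length and 70.4% in MZM0403. The groups did not overlap, with means of 90.1% ± 3.59 (SD, n = 2) and 74.5% ± 7.17 (n = 3), and the difference of 15.6 percentage points gave p = 0.2 in a two-sided exact permutation test (0.457 when adjusted over 32 lists). With 2 libraries against 3 there are 10 splits, so this test cannot go below 0.1 and cannot reach 0.05. Of the embryos not in diapause, replicate 1 (83.5%) lay next to the 2-week library, while replicates 2 and 3 held 64.5% and 73.9%. miR-10b-5p was the most abundant miRNA of all 8 libraries. Among the 5 in diapause it ranged from 573296 RPM in MZM0403 to 749246 RPM after 1 month. The 2-week (698897 RPM) and the 2-month library (697875 RPM) differed by little in it, so that its groups overlapped.

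The miR-430 family took a smaller share of all counts in GRZ x MZZW than in either MZM0410 library, while MZM0403 lay between the GRZ x MZZW libraries. It took 1.87% after 1 month, 3.23% after 2 months, 6.45% after 2 weeks, 11.2% in MZM0410 of no stated length and 2.58% in MZM0403. The means of 2.55% ± 0.961 (SD, n = 2) and 6.76% ± 4.34 (n = 3) differed by less than the spread between the MZM libraries (exact permutation p = 0.3, adjusted p = 0.533). The difference of -4.21 percentage points was -1.97 without the MZM0410 library of no stated length. Of the counts outside the miR-10 family, miR-430 took 25.23% and 25.86% in GRZ x MZZW after 1 and 2 months. In MZM0410 of no stated length and of 2 weeks it took 37.79% and 37.4%. MZM0403, at 8.735%, then lay below both GRZ x MZZW libraries. The embryos not in diapause ranged more widely, from 4.32% in replicate 1 to 20.9% in replicate 2. Nearly all of the family was miR-430a-3p, at 17397 and 29519 RPM in GRZ x MZZW after 1 and 2 months and at 23754, 98049 and 57903 RPM in MZM0403, MZM0410 of no stated length and MZM0410 after 2 weeks. The miR-17-92 clusters without miR-19 held 2.01% and 2.89% of counts in GRZ x MZZW against 6.22%, 6.73% and 3.12% in the same MZM libraries. That order turned round when shares were taken of the counts outside the miR-10 family, at 27.1% and 23.2% against 21.0%, 22.6% and 18.1%.

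**Figure D1:**
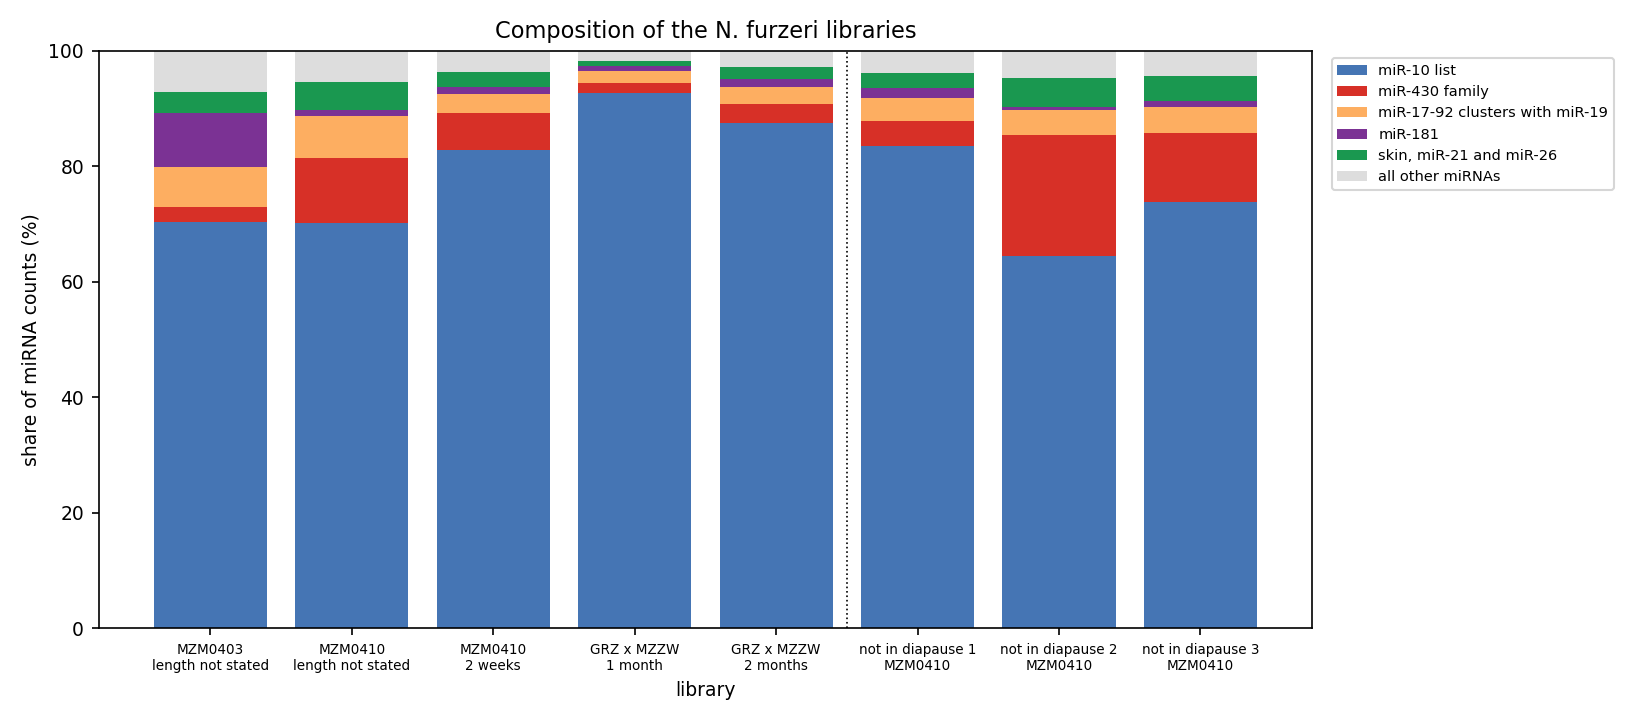
Share of all miRNA counts (%, y axis) taken by 5 groups of miRNAs and by all others in each N. furzeri library (x axis), with the libraries in diapause left of the dotted line. The miR-10 part is tallest in the GRZ x MZZW library of 1 month (92.6%), miR-430 is small there and in MZM0403, and miR-181 is wide in MZM0403 only (9.23%).

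Because the miR-10 family took so much, the direction of many other miRNAs depended on the scaling. Over the 155 miRNAs that passed the filter on low counts, the median log2 difference of GRZ x MZZW minus MZM was -0.17 with TMM scaling, where 63 were higher and 92 lower. With library totals only it was -1.37, with 8 higher and 147 lower. In RPM the 1-month library was the lowest of the 5 for 116 of the 155 miRNAs. Differences below are with TMM scaling and are to be read against its median of -0.17, and the text says where library totals turn them round.

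The largest difference within the MZM group lay between MZM0403 and the rest. miR-9-7-3p, an arm of the miR-9 hairpins expressed in neural progenitors, stood at 3963 RPM in MZM0403 and between 3.65 and 12.1 RPM in the other 4 diapause libraries. miR-9-5p stood at 2339 RPM against 39.5 to 219 RPM, and miR-125a, which in many animals is clustered with let-7 and miR-100, at 1025 RPM against 7.56 to 43.2 RPM. MZM0403 was thus alone in these miRNAs, and the embryos not in diapause, at most 3.59 RPM for miR-9-7-3p, lay with the other 4. miR-181a-5p, abundant in lymphoid and neural cells, reached 83217 RPM in MZM0403 and at most 12099 RPM in the other diapause libraries. miR-182-5p, of a cluster expressed in hair cells and photoreceptors, stood at 10620 RPM against 1216 to 1274 RPM, a range that is narrow on this scale only. let-7a stood at 1696 RPM in MZM0403, 126 RPM in MZM0410 of no stated length, 274 RPM after 2 weeks, 54.8 RPM after 1 month and 67.2 RPM after 2 months. Among the 91 miRNAs averaging at least 50 CPM, MZM0403 lay more than 4-fold above each other diapause library in 13 in RPM. With TMM scaling it did so in 4 (let-7g, miR-9-5p, miR-9-7-3p and miR-125a). No other diapause library lay that far above the rest in any of the 91.

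**Figure D2:**
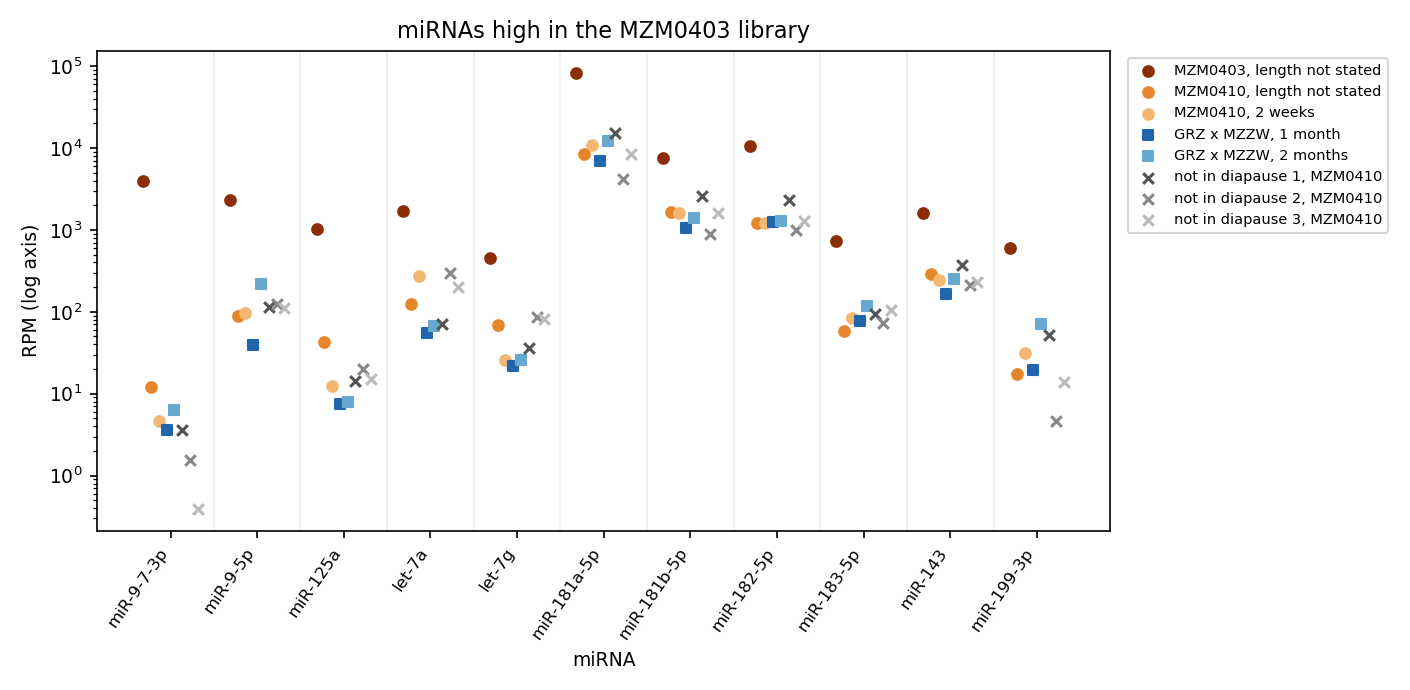
RPM (log axis) of 11 miRNAs that were high in the MZM0403 library, in each of the 8 N. furzeri libraries, with circles for MZM and squares for GRZ x MZZW in diapause and crosses for embryos not in diapause. The single MZM0403 library lies above all others for each of the 11 miRNAs, for example at 3963 RPM for miR-9-7-3p.

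The lists of related miRNAs show the same library apart. let-7 took 0.285% of counts in MZM0403 and between 0.0117% and 0.0354% in the other diapause libraries, and miR-9 took 0.642% against 0.00444% to 0.0234%. The miR-181 list took 9.23% against 0.819% to 1.37%, and the sensory list of miR-96, miR-182 and miR-183 took 1.14% against 0.128% to 0.139%. Of the counts outside the miR-10 family, the sensory list took 3.858% against a wider 0.4295% to 1.799%. These 4 lists are among those in which MZM0403 was the extreme, so the other 4 libraries necessarily spread less. Across the 91 miRNAs averaging at least 50 CPM, root mean square log2 distances were taken. With TMM scaling MZM0403 lay between 1.597 and 1.802 from the other diapause libraries, while the other 4 lay between 0.757 and 1.35 from each other. In RPM these ranges were 1.88 to 2.66 and 0.780 to 2.06, and so overlapped. The 2.06 was between MZM0410 of no stated length and the 1-month library. On the TMM scale the closest pair in diapause was the 2-week MZM0410 and the 2-month GRZ x MZZW library (0.757), which differ in strain, length and pool label. The 1-month and 2-month GRZ x MZZW libraries were at 0.774, and the MZM0410 libraries of 2 weeks and of no stated length at 1.02. Replicate 1 of the embryos not in diapause lay nearer to the 2-week (0.627) and the 2-month library (0.648) than those lay to each other. What sets MZM0403 apart was not tested, since it was the only library of its strain. It also had the smallest number of raw reads of the 5, at 3516736. Its miRNA counts, at 1391848, were not the lowest, and it detected the most miRNAs (240).

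**Figure D3:**
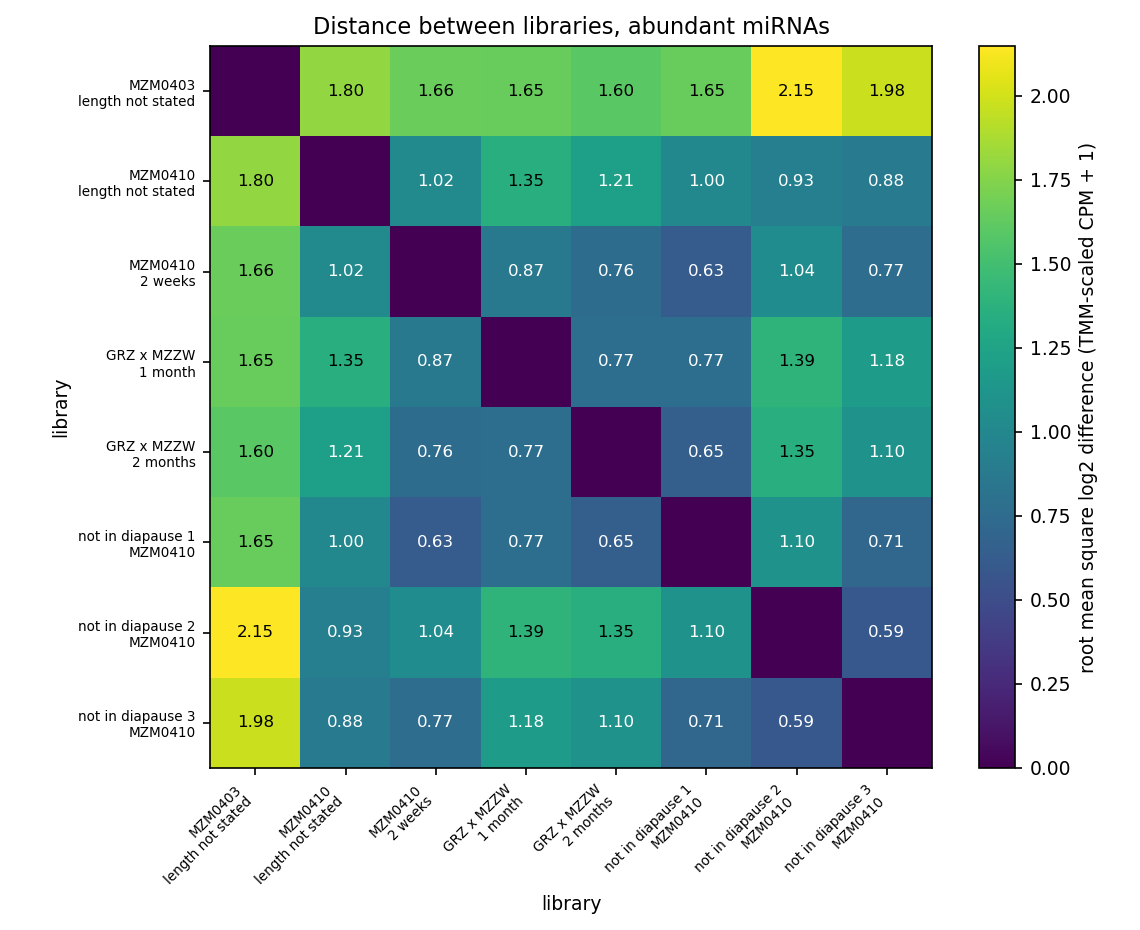
Root mean square log2 difference (TMM-scaled CPM with 1 added) between each pair of the 8 N. furzeri libraries over the 91 miRNAs averaging at least 50 CPM; both axes list the libraries and lighter cells lie farther apart. The MZM0403 row is the lightest, at 1.60 to 2.15, and the 2-week, 1-month and 2-month libraries are within 0.868 of each other.

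GRZ x MZZW and MZM were then compared miRNA by miRNA. miR-135b-5p was the miRNA with the lowest p, higher in both GRZ x MZZW libraries than in any MZM library. It had 539 and 438 TMM-scaled CPM after 1 and 2 months, against 101 in MZM0403, 35.4 in MZM0410 of no stated length and 124 after 2 weeks. The log2 difference was 2.49 (SE 0.63), and its groups did not overlap in RPM either (226 and 381 against 190, 55.2 and 115). By edgeR's quasi-likelihood test with Benjamini-Hochberg adjustment it did not pass (adjusted p = 0.707), whereas the Wald test of DESeq2 called it (log2 difference 2.56, adjusted p = 0.0247). The embryos not in diapause, at 332, 117 and 217 RPM, spanned the gap between the groups.

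The abundant members of the miR-10 family shared this direction. miR-10d-5p held 165621 and 164206 RPM in GRZ x MZZW against 108617, 86560 and 122048 RPM in MZM0403, MZM0410 of no stated length and MZM0410 after 2 weeks. Its log2 difference was 1.84 (SE 0.66, edgeR adjusted p = 0.707) with TMM scaling and 0.64 with library totals, and on both scales the groups did not overlap. miR-10c-5p stood at 10319 and 12261 RPM against 21415, 4826 and 5594 RPM in the same order, so MZM0403 had the highest level and the MZM0410 libraries the lowest. Its log2 difference of 1.51 (SE 0.68, edgeR adjusted p = 0.750) came down to 0.09 with library totals. For miR-10b-5p the log2 difference was 1.43 (SE 0.67) and for miR-10a-5p 1.14 (SE 0.58), which came to 0.21 and -0.06 with library totals. Without the 1-month library the TMM-scaled differences were smaller, at 0.74 for miR-10b-5p, 0.64 for miR-10a-5p and 1.21 for miR-10d-5p. Of the 6 members tested, 5 were higher and 1 lower with TMM scaling, and 3 and 3 with library totals. The 1 that was lower was miR-10b-2-3p, a less abundant arm named here after its values were seen, with 2 and 3 counts in the GRZ x MZZW libraries and 17, 103 and 83 in the same MZM libraries. DESeq2 called it (adjusted p = 0.0247) and edgeR did not (adjusted p = 0.707), except without MZM0403, when it was the only miRNA edgeR called (adjusted p = 0.0149). The GRZ x MZZW counts do not exceed the floor of 3 counts, so no fold is given.

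miR-30e-5p, of a family known from kidney and other differentiated tissue, was the abundant miRNA with the lowest p among those lower in GRZ x MZZW. It had 148 and 198 TMM-scaled CPM there against 568 in MZM0403, 1589 in MZM0410 of no stated length and 441 after 2 weeks. The log2 difference was -2.32 (SE 0.75, edgeR adjusted p = 0.707), and the groups did not overlap on either scale. Without the MZM0410 library of no stated length the difference was -1.54. The opposite arm, miR-30e-3p, had a log2 difference of 0.15 (SE 0.77), which turned to -0.98 with library totals, and its groups overlapped on both scales, at 1005 and 1033 RPM in GRZ x MZZW against 973, 2521 and 2543 RPM in those MZM libraries. miR-2188-3p had 51.2 and 54.3 TMM-scaled CPM against 112, 199 and 122, a log2 difference of -1.45 (SE 0.52). miR-126b-3p, of the endothelial miR-126 family, had 57.0 and 67.2 against 168, 274 and 76.6 (log2 difference -1.47, SE 0.66, and -0.97 without the MZM0410 library of no stated length). The 2-week library lay near the GRZ x MZZW libraries in miR-126b-3p but not in miR-2188-3p.

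Over all 155 miRNAs edgeR called 0 (0%) at an adjusted p of 0.05, and 6 had an unadjusted p under 0.05, 2 of them higher and 4 lower. DESeq2 called 2, and had 14 below 0.05 without adjustment. The 6 were miR-135b-5p and miR-10d-5p, and miR-10b-2-3p, miR-30e-5p, miR-100-2-3p and miR-2188-3p. miR-100-2-3p, named after its values were seen, had 4 and 0 counts in GRZ x MZZW against 238, 10 and 16 in MZM. With TMM scaling the groups did not overlap for 17 miRNAs higher in GRZ x MZZW (11.0%) and 15 lower (9.68%). In RPM the same was true of 2 higher (1.29%) and 67 lower (43.2%). With 10 splits of 2 libraries against 3, a random split leaves the groups apart in a given direction at a rate of 0.1. Both TMM-scaled shares lay near that rate, so lack of overlap alone does not mark a group difference. The 10 higher miRNAs of the plotted set also held miR-130c-3p (log2 difference 0.95, SE 0.51), miR-25-3p (0.83, SE 0.51), miR-27c-3p (0.84, SE 0.57), miR-375, known from the pancreas (0.80, SE 0.52), and miR-135a (0.76, SE 0.48). All 5 of these turned negative with library totals, between -0.26 and -0.37. The 9 lower ones also held miR-722 (-0.79, SE 0.52), miR-218a, known from motor neurons (-0.61, SE 0.50), miR-26b (-0.42, SE 0.48), miR-30c-5p (-0.39, SE 0.48), miR-205-5p of the skin (-0.35, SE 0.49) and miR-93 of the miR-17-92 clusters (-0.14, SE 0.44). For miR-93 the 5 values lay between 74.4 and 86.3 TMM-scaled CPM, so the groups were apart by a narrow gap.

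**Figure D4:**
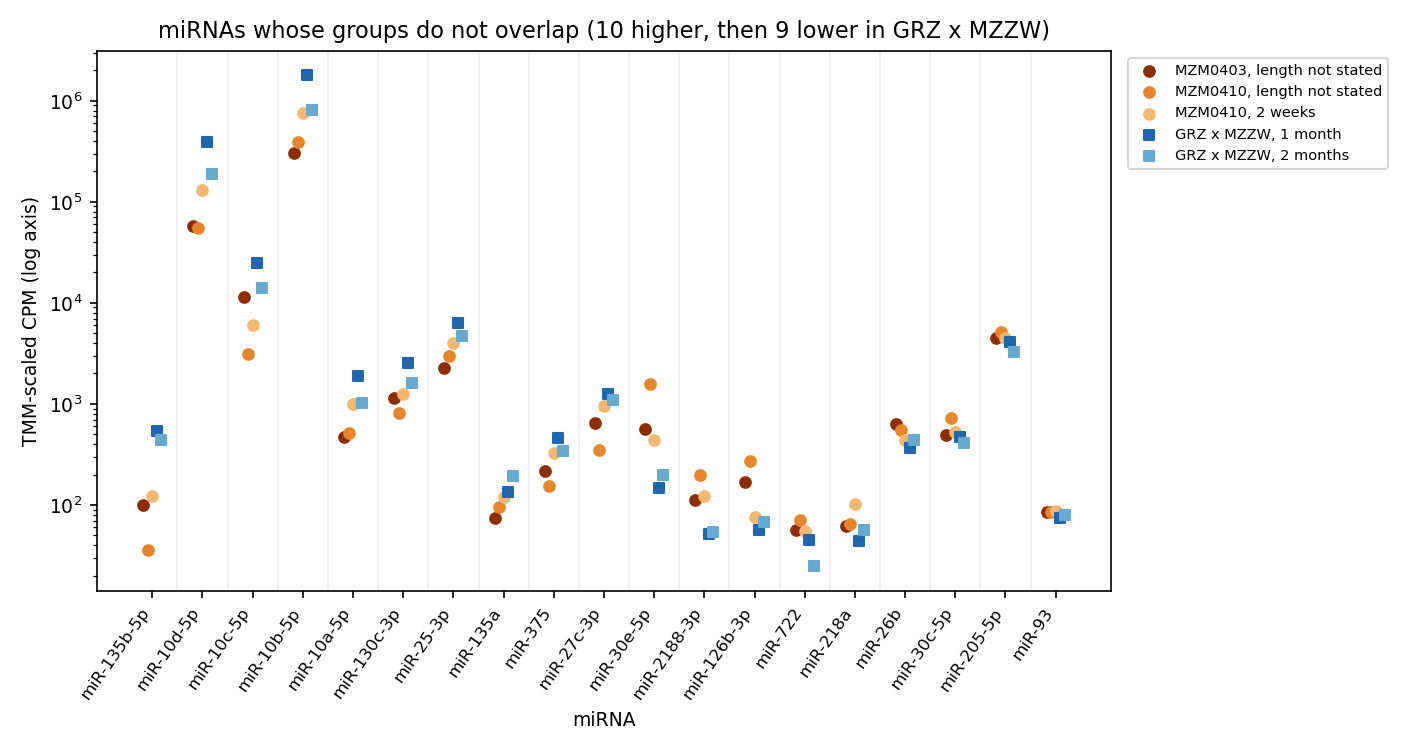
TMM-scaled CPM (log axis) of 19 abundant miRNAs whose GRZ x MZZW and MZM libraries did not overlap, 10 higher and then 9 lower in GRZ x MZZW, with 1 point for each of the 5 diapause libraries. The gap is wide for miR-135b-5p and miR-30e-5p and narrow for miR-93. TMM scaling lifts miR-10b-5p of the 1-month library beyond the range a plain CPM can take, since that library's scaling factor is 0.419.

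The families behaved as follows, in log2 differences with TMM scaling, and over the 5 libraries edgeR called no member of any list. DESeq2 called 1, the miR-10b-2-3p of the miR-10 list described above. All 3 miR-430 members tested were lower (median -0.28), 4 of 4 miR-19 members were lower (median -0.51), and of the miR-17-92 clusters without miR-19, 7 were higher and 5 lower (median 0.06), but all 12 were lower with library totals (median -1.17). miR-19b-3p, the most abundant miR-19, stood at 631 and 544 RPM in GRZ x MZZW after 1 and 2 months and at 704 RPM after 2 weeks. It stood at 3952 RPM in MZM0403 and 2510 RPM in MZM0410 of no stated length, the 2 libraries labelled lane 1. miR-19a-3p followed the same split, with 167, 173 and 295 RPM against 1144 and 1264 RPM. The miR-19 list as a whole took 0.694% and 0.447% of counts in these lane 1 libraries and between 0.1001% and 0.124% in the 6 other N. furzeri libraries. Of the counts outside the miR-10 family the list took 2.347% and 1.502% in the lane 1 libraries and 1.368% after 1 month. The rest held between 0.2822% and 0.8054%. On that denominator the 1-month library, labelled pool 3, thus lay near the lane 1 libraries. With the lane and pool label as a covariate, fitted over all 8 libraries, the 4 miR-19 values turned positive, between 0.19 and 0.93. Lane 1 held only MZM libraries and pool 2 only the 2-month library. That fit therefore sets the 1-month library against the 2-week library, 1 on each side. The label and the length cannot be told apart here, since both lane 1 libraries are those with no stated length.

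let-7 had 1 member higher and 6 lower (median -1.37), and miR-99, miR-100 and miR-125 had 6 of 6 lower (median -2.44). In 6 of the 7 let-7 members and 5 of the 6 others MZM0403 was the highest of the 5 libraries on this scale, against 48 of all 155 miRNAs tested. miR-9 had 3 of 3 lower (median -1.97), with MZM0403 the highest in each. miR-9-5p stood at 219 RPM after 2 months, above the MZM0410 libraries (88.1 and 97.2 RPM), and at 39.5 RPM after 1 month. The share of the miR-9 list differed by -0.207 percentage points between the groups, and by 0.00349 points without MZM0403. Of the miR-23/27/24 clusters, known in blood vessels, 8 were higher and 1 lower with TMM scaling (median 0.42) but 1 and 8 with library totals. Of the muscle list 4 were higher and 1 lower (median 0.63), and all 5 were lower with library totals.

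miR-29a and miR-29b, of a family that represses collagen genes, had log2 differences of 0.22 (SE 0.65) and 0.35 (SE 0.60), which turned to -0.96 and -1.07 with library totals. miR-29a stood at 13.9 and 45.6 RPM in GRZ x MZZW and at 116, 29.4 and 27.04 RPM in MZM0403, MZM0410 of no stated length and MZM0410 after 2 weeks. miR-101a, of a family that represses the histone methyltransferase Ezh2, had 0.81 (SE 0.61) and -0.56 with library totals, and miR-101b had -0.34 (SE 0.65). Without the 1-month library these TMM-scaled values were 0.057 and -1.47. Of the hypoxia and stress list, miR-210-3p, induced by low oxygen, had 6.34 and 6.40 RPM in GRZ x MZZW after 1 and 2 months, 8.62 RPM after 2 weeks, 49.6 RPM in MZM0403 and 25.9 RPM in MZM0410 of no stated length. The 3 embryos not in diapause were lower still, at 1.56 to 2.15 RPM, from 2 to 9 counts. Within diapause its log2 difference was -0.61 (SE 0.73). miR-462 and miR-731, a fish cluster induced by low oxygen, had 0.08 (SE 0.49), which turned to -1.23 with library totals, and -0.67 (SE 0.64).

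Neighbouring pairs of libraries changed different parts of strain, length and label, and with 1 library on each side there was no test. MZM0410 of no stated length and MZM0403, which carry the same lane label and differ in strain, both with no stated length, were more than 2-fold apart in 44 of the 91 abundant miRNAs (48.4%). The MZM0410 libraries of 2 weeks and of no stated length, of different labels, were so in 22 (24.2%). The 2-week MZM0410 and the 1-month GRZ x MZZW library, which share the pool 3 label, were also so in 22 (24.2%), and the 1-month and 2-month GRZ x MZZW libraries, of different pool labels, in 16 (17.6%). On the RPM scale the counts were 45, 36, 44 and 33. All 44 of the third pair were then lower after 1 month, and 32 of the 33 of the last pair higher after 2 months. From 1 to 2 months the widest TMM-scaled difference among the named miRNAs was that of miR-128-3p, a neuronal miRNA, at 79.4 and 884 RPM (log2 difference 2.42). The MZM libraries held 759, 799 and 255 RPM of it, so in RPM the 1-month library was low and the 2-month library was not. TMM scaling divides by factors of 0.419 after 1 month and 0.869 after 2 months, against 0.9315 to 1.889 in MZM. On that scale the 1-month library came nearer to the 2-week library, and the 2-month library lay farther above all MZM libraries. Between 1 and 2 months miR-206-3p of skeletal muscle went down, from 65.8 to 32.0 RPM (TMM-scaled log2 difference -2.06).

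Along the stated lengths of 2 weeks, 1 month and 2 months, each given by 1 library, miR-100-5p had the steepest falling order. It had 2499 TMM-scaled CPM after 2 weeks, 374 after 1 month and 190 after 2 months, a slope of -1.86 log2 units per step (SE 0.65, edgeR unadjusted p = 0.0191, adjusted p = 0.994). In RPM the levels were 2251, 167 and 170, so nearly all of the difference lay between the 2-week MZM0410 and the 1-month GRZ x MZZW library, where strain changes too. The libraries of no stated length lay at both ends, with 1918 RPM in MZM0403 and 126 RPM in MZM0410. Embryos not in diapause held 259, 246 and 541 RPM. A slope fitted to the 3 libraries alone called miR-100-5p (edgeR adjusted p = 0.00189), as did the fits over all other libraries that left out MZM0403 or the MZM0410 library of no stated length (adjusted p = 5.31e-05 and 4.73e-05), which also called miR-10b-2-3p and miR-733, both falling. The spread in the former fit rests on 1 residual degree of freedom among these 3 libraries.

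Across the 175 miRNAs tested for a slope over the 8 N. furzeri libraries edgeR called 0 (0%), and 1 was below 0.05 without adjustment. The median slope was -0.07, with 44.6% of slopes positive. Scaled by the counts outside the miR-10 family, 68.0% of slopes were positive, with a median of 0.16. The TMM-scaled values were in strictly rising order for 17 (9.71%) and in strictly falling order for 35 (20.0%). With only 3 values, strict order is common by chance alone, so these shares do not show a trend with length. The other falling miRNAs named were let-7a (slope -1.01, SE 0.67), miR-203a-5p of the skin (-0.74, SE 0.54), miR-30e-3p (-0.65, SE 0.51) and miR-21, common in growing tissue (-0.60, SE 0.52). miR-21 stood at 8196, 1784 and 3566 RPM after 2 weeks, 1 month and 2 months, at 5745 RPM in MZM0403 and at 19249.5 RPM in MZM0410 of no stated length. Embryos not in diapause held 10172 to 28059 RPM of it and so overlapped with those in diapause. The rising ones were miR-199-3p of mesenchyme (0.58, SE 0.90), miR-15b-5p (0.41, SE 0.53), miR-30b (0.37, SE 0.33), miR-135a (0.30, SE 0.35) and miR-107a-3p (0.07, SE 0.36). Each of these 5 slopes was smaller than its standard error or close to it. None of the 10 was in strict order in RPM, where the 1-month library was the lowest of the 3 for each of the 10. miR-135a was at 289, 228 and 478 RPM in the embryos not in diapause, above the 56.1 to 168 RPM of the 5 in diapause.

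**Figure D5:**
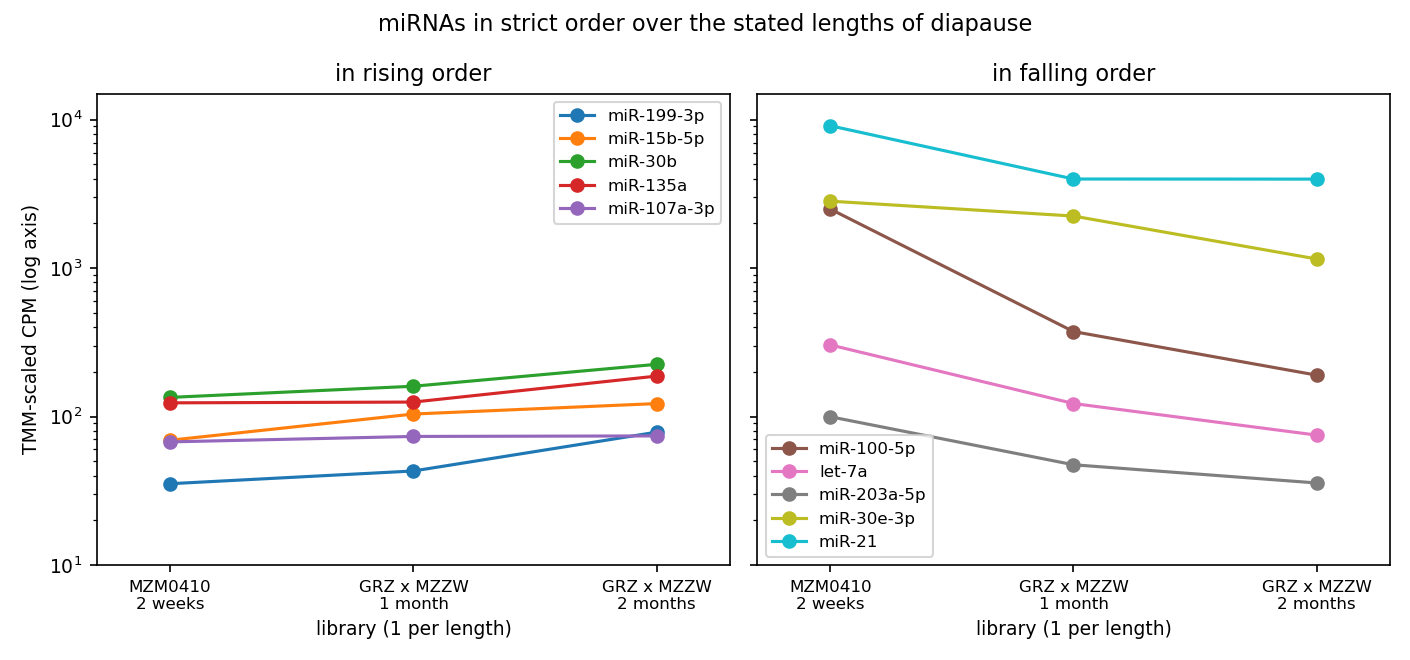
TMM-scaled CPM (log axis) of the 5 rising and 5 falling miRNAs in strict order over the 3 libraries with a stated length of diapause (x axis, 1 library per point, no error). miR-100-5p differs most between 2 weeks and 1 month, at 2499 and 374, where the strain changes as well, and the rising lines are shallow.

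The shares of 32 lists gave the same picture as the single miRNAs in RPM. The groups did not overlap for 15 of the 32 lists, of which the miR-10 family was higher in GRZ x MZZW and 14 were lower. Over all 155 miRNAs tested, 67 (43.2%) were lower without overlap in RPM and 2 (1.29%) higher. The lists that were lower are thus near the share of all miRNAs. With the counts outside the miR-10 family as the denominator, 7 did not overlap, 6 of them higher in GRZ x MZZW. Skin miRNAs took 0.418% and 1.02% of all counts in GRZ x MZZW against 1.35%, 1.90% and 1.36% in MZM (exact permutation p = 0.1, the smallest possible). The miR-30 list took 0.1497% and 0.208% against 0.383%, 0.665% and 0.374% (exact p = 0.1), and miR-148 and miR-152 took 0.0110% and 0.0119% against 0.0252%, 0.0437% and 0.0262% (exact p = 0.1). Each has an adjusted p = 0.457 over the 32 lists, and all 3 overlapped once the miR-10 family was left out of the total. miR-21, the miR-19 list and miR-221 and miR-222 were also lower in both GRZ x MZZW libraries (exact p = 0.2 each). Blood miRNAs, at 0.000829% and 0.00168% against 0.0109%, 0.00552% and 0.00345%, were the 1 list lower without overlap on both denominators (exact p = 0.2). Outside the miR-10 family they took 0.0112% and 0.0135% against 0.0369%, 0.0186% and 0.0200%. The list is rare, and only 2 of the 8 blood members passed the filter on low counts. The 95% counting interval of the share after 2 months ran from 0.00110% to 0.00257% of all counts.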

How the data were processed

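Per the labels' protocols, libraries were prepared from total RNA of whole embryos with Illumina's TruSeq chemistry for small RNAs. The values used are the raw read counts for each mature miRNA as the authors deposited them. Per the file headers, reads were filtered for quality, cleared of adapters, restricted to 18 to 33 nt and then aligned. The submitters' processing notes list Bowtie (1.0.0, 1.1.2), bcl2fastq (1.8.3) and CASAVA (1.8.2). Which miRNA reference was used and how ambiguous reads were handled is not given in the sources used here, so near-identical family members may share reads, and miR-126a-5p and miR-126b-5p, whose counts nearly coincide, are not reported. The 2 columns matching no sample and the line of totals, which names no miRNA and repeats the sum of the others, were left out.

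In R 4.3.3, edgeR 4.0.16 was run with filterByExpr, TMM scaling, the quasi-likelihood test and Benjamini-Hochberg adjustment at 0.05, over the 5 diapause libraries. The slope was fitted over all 8 N. furzeri libraries, with means of their own for the libraries not in diapause and those of no stated length. DESeq2 1.42.0 was an alternative. The edgeR fits of the groups and of the slope were tested on simulated data whose spread was smaller than that of the diapause libraries. DESeq2 was not tested in this way. Shares were compared by two-sided exact permutation. The named miRNAs were, among those averaging at least 50 CPM, up to 10 higher and 10 lower with the lowest p and no overlap between groups, and the 5 rising and 5 falling with the largest slope and strict order. To these came the 10 most abundant, the 2 most abundant of each of 32 lists, and the tested members of 5 lists (hypoxia and stress, miR-101, miR-29, miR-19 and miR-430), and not all of them are printed. Lists, rule and comparison were chosen with earlier results of these data known. Whether the libraries stem from separate clutches is not stated, and p-values therefore reflect only the spread between these samples. No pair of libraries agreed within counting noise.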

Additional observations from a re-analysis of the deposited data

Results flagged for a closer look

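In the 5 diapause libraries, 114 quantities (the RPM of 82 named miRNAs and the shares of 32 lists) were examined for a single library far from the other 4. In 32 of them the extreme library's gap to its nearest neighbour exceeded 0.71 of the whole range. For normally distributed values chance gives about 1 in 20. RPM and shares were used without a log, so that rate need not hold here. The far library was MZM0403 in each of the 32, and it was the highest each time. In RPM it was also the highest of the 5 for 83 of the 155 miRNAs tested, and MZM0410 of no stated length for 60. With TMM scaling these counts were 48 and 39, and 35 for the 1-month library. The flagged MZM0403 values were as follows.

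Among neural and sensory miRNAs these were 3963.1 RPM for miR-9-7-3p, 2339.3 for miR-9-5p, 238.5 for miR-153a-3p, 10620.4 for miR-182-5p, 730.7 for miR-183-5p and 1202.0 for miR-204-5p. In the let-7, miR-125 and miR-181 families they were 1695.6 RPM for let-7a, 459.1 for let-7g, 1025.3 for miR-125a, 83216.7 for miR-181a-5p and 7459.9 for miR-181b-5p. In mesenchyme, muscle and smooth muscle they were 598.5 RPM for miR-199-3p, 162.4 for miR-133a-3p, 1587.8 for miR-143 and 12.93 for miR-145-5p. In gut, pancreas and blood they were 37.36 RPM for miR-194b, 171.7 for miR-216b and 53.17 for miR-144-5p. In the other families they were 2174.8 RPM for miR-130c-3p, 224.2 for miR-130b, 282.4 for miR-15b-5p, 742.9 for miR-101a and 1744.4 for miR-19d-3p. With TMM scaling miR-130c-3p was lower in MZM0403 than in both GRZ x MZZW libraries.

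By list, the MZM0403 library stood apart with 0.2849% of counts for let-7, 0.01523% for miR-29, 0.07946% for miR-101, 0.03585% for muscle and 0.642% for miR-9. It did so too with 1.141% for the sensory list, 9.231% for miR-181, 0.1902% for cartilage and mesenchyme and 0.1603% for smooth muscle. Many of these miRNAs belong to flagged lists, so the flags are not independent of each other. With TMM scaling MZM0403 was the highest diapause library for 0 of 2 tested miR-101 members, 1 of 2 miR-29 and 1 of 5 muscle. For let-7 it was 6 of 7, for miR-9 and miR-181 3 of 3 each and for the sensory list 2 of 2. For cartilage and mesenchyme it was 5 of 6 and for smooth muscle 1 of 1.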

How the results depend on the processing

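The GRZ x MZZW and MZM comparison called 0 miRNAs by edgeR under each scaling and filter and with all 8 libraries. DESeq2's Wald test called 2 (1 of the named miRNAs, miR-135b-5p), and leaving out each library gave 0 to 1. The slope test called 0 under each scaling and filter, 1 over only the 3 libraries with a stated length, and 0 leaving out each library not in diapause. Leaving out either library of no stated length leaves 1 of them, which takes their difference out of the spread. Counts of miRNAs past 2-fold came to 36, 44 and 33 with library totals. They belong to the successive pairs of MZM0410 of no stated length, MZM0410 of 2 weeks, GRZ x MZZW of 1 month and of 2 months. Lists without overlap numbered 7 of 32 outside the miR-10 counts and 16 to 29 leaving out each library, 29 without the 2-month library.

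With library totals only, 10 log2 differences changed sign: miR-10a-5p -0.055, miR-130c-3p -0.33, miR-25-3p -0.34, miR-135a -0.26, miR-375 -0.37, miR-27c-3p -0.28, miR-29a -0.96, miR-29b -1.07, miR-101a -0.56 and miR-462 -1.23. With totals without the miR-10 family, miR-93 came to 0.016. With the label as a covariate miR-19a-3p came to 0.19, miR-19b-3p 0.85, miR-19c-3p 0.19, miR-19d-3p 0.93, miR-101b 0.058, miR-210-3p 0.56 and miR-731 0.34. That fit sets only the 1-month library against the 2-week library. miR-462 also came to -0.078 with a minimum of 50 CPM and to -0.027 with all 8 libraries. Leaving out each library, the ranges that crossed 0 were -1.47 to 0.37 for miR-101b, -1.20 to 0.13 for miR-19b-3p, -0.71 to 0.38 for miR-19d-3p, -0.074 to 0.83 for miR-29a, -0.14 to 0.82 for miR-29b, -0.70 to 0.070 for miR-430a-3p, -0.21 to 0.44 for miR-462 and -1.61 to 0.0021 for miR-731. Without the 1-month library, miR-10b-5p, miR-10a-5p, miR-10d-5p and miR-101a came down by over 1.5 times, to 0.74, 0.64, 1.21 and 0.057. Shares of counts outside the miR-10 family turned positive for miR-17-92 without miR-19 (4.58 percentage points), muscle (0.0289), epithelial miR-200 (0.0534), skin (0.628), miR-23/27/24 (0.835) and miR-29 (0.00943). Leaving out each library, the miR-9 share differed by -0.312 to 0.00349 points and the sensory share by -0.499 to 0.00715, the upper values without MZM0403. The cause of these changes was not tested.

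Totals and pair differences without the miR-10 family or with library totals were chosen after seeing the data. No paired analysis was possible because replicate numbers, given in sample order, link no library of 1 group to a library of another. Of the lane and pool labels only pool 3 is shared across groups, by the 2-week, the 1-month and the libraries not in diapause. The fit with the label as a covariate thus rests on the 1-month and 2-week libraries for the difference between the groups. Depth limits the rare miRNAs most in the MZM0410 library of no stated length, at 579183 counts, and each strain and length rests on 1 or 2 libraries.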
